A study of Mus musculus with 15 samples.

Results

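Helios (gene Ikzf2) and Eos (gene Ikzf4) are 2 members of the Ikaros family of zinc finger transcription factors, and the question here was whether regulatory T (Treg) cells that lack both differ from what the single losses add up to. The quantity followed throughout, called the departure, was the log2 difference of double-knockout (dKO, Ikzf2-/-Ikzf4-/-) minus Ikzf4-/- cells, less the log2 difference of Ikzf2-/- minus WT cells. It compares the effect of losing Helios in cells without Eos with the same effect in cells that have Eos. A departure of 0 means that the log2 changes add, a positive one that dKO cells lay above the sum of the single losses, and a negative one that they lay below it. The departure used 12 of the 15 arrays of the series: dKO 1 to 3, Ikzf4-/- 1 to 3, Ikzf2-/- 1 to 3 and WT 4 to 6. The other 3, WT 1 to 3, entered the estimate of the spread and were the controls of Ikzf4-/- and dKO cells.

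All cells were CD4+CD25+ splenocytes sorted from mice, and each array measured 15 ng of total RNA amplified over the whole transcript. WT 1 to 3, Ikzf4-/- and dKO arrays were taken as 1 set of 9 arrays, and WT 4 to 6 and Ikzf2-/- arrays as a set of 6. Each of the subtracted differences thus stays within its own set. The labels do not state these sets, which were inferred from the numbering and from exactly equal values shared by arrays. The genotypes are given as null alleles with no further agent or treatment. Strain, age, sex and the construction of the alleles are not given in the sources used here, nor whether the 3 arrays of a group came from separate animals, so p-values here reflect array-to-array spread that could in part be technical. No inducible or cell-type-restricted deletion is named.

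Ikaros family proteins bind DNA through N-terminal zinc fingers and pair with themselves and with each other through C-terminal zinc fingers. They recruit corepressors such as histone deacetylase complexes, and are best known in lymphocytes as repressors. Treg cells hold back immune reactions and depend on the transcription factor Foxp3. Helios marks a large share of them and has been linked to their stability, while Eos is known as a partner of Foxp3 in gene silencing. Because the proteins share their DNA-binding domain, loss of one could be covered by the other, which would show as a dKO effect larger than the sum of the single losses.

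The labelled cell type fitted its defining markers. Foxp3 signals ran from 10.10 to 11.16 on the log2 scale over the 15 arrays and Il2ra (CD25) signals from 10.23 to 11.10. Signals of other cells varied most in the Ikzf2-/- group and in WT 1. The mean log2 signal of 18 B cell genes was 6.36, 5.50 and 7.997 in Ikzf2-/- 1 to 3, against 5.59 to 5.81 in WT 4 to 6 and 4.92 to 5.19 in the Ikzf4-/- and dKO arrays. The mean of 9 neutrophil genes was 6.40, 5.82 and 8.58 in Ikzf2-/- 1 to 3, 4.95 to 5.51 in WT 4 to 6, and 4.30 to 5.57 in the Ikzf4-/- and dKO arrays. WT 1, which enters no departure but is a control in dKO minus WT 1 to 3, had means of 7.10 and 6.93. Cd8b1 (a CD8 T cell gene) stood at 7.31 in Ikzf2-/- 2 and at 6.06 to 6.12 in the other arrays of its set. In the set of 9 arrays Cd8b1 ran from 6.46 to 7.38. The other CD8 T cell gene listed, Cd8a, was too low to be tested. It stood at 4.68 in Ikzf2-/- 2, within the 4.34 to 4.74 of WT 4 to 6. The median SD of a gene across 3 arrays was 0.193 in the Ikzf2-/- group and between 0.0922 and 0.110 in the other 4 groups. In bulk RNA, more cells of a type and more RNA per cell cannot be told apart.

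Sex also differed between arrays. The Y-linked gene Eif2s3y had signals of 7.94 and 8.81 in dKO 2 and dKO 3 and of 8.64 in Ikzf4-/- 3, against 3.09 or less in dKO 1, the other Ikzf4-/- arrays, WT 4 to 6 and all Ikzf2-/- arrays. Xist, made from an inactive X chromosome, stood at 7.25 in dKO 2, between the 4.11 and 4.17 of Ikzf4-/- 3 and dKO 3 and the 9.64 to 10.32 of the arrays without Eif2s3y signal. The median departure of the 4 sex-linked genes tested was 1.02, and these genes are not counted as a result.

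The targeted genes themselves gave no full check of the labels, because nothing used here tells whether their probes lie in the deleted exons. Ikzf2 signals were 10.25, 10.38 and 10.38 in WT 4 to 6 and 10.06, 9.14 and 9.22 in the Ikzf2-/- arrays. They were 10.49, 10.71 and 10.81 in the Ikzf4-/- arrays and 10.11, 10.16 and 10.59 in the dKO arrays. All Ikzf2-/- arrays were thus below their WT arrays, whereas dKO 3 lay within the range of its Ikzf4-/- arrays. The log2 difference of Ikzf2 was -0.86 (SE 0.20) in Ikzf2-/- minus WT 4 to 6 and -0.38 (SE 0.20) in dKO minus Ikzf4-/-, and neither passed the adjusted test. Its departure was 0.48 (95% interval -0.14 to 1.10). Ikzf4 signals were 8.07 to 8.22 across the Ikzf4-/- and dKO arrays and 7.83 to 8.07 in WT 1 to 3, so this probe set was not lower where Ikzf4 is deleted.

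No gene's departure passed the adjusted test over all genes. Of 10964 genes tested, 0 (0%) had an adjusted p under 0.05 in limma's moderated test, and the smallest adjusted p was 0.760. At an unadjusted p under 0.05 there were 690 genes (6.29%), of which 492 (4.49%) lay below the sum and 198 (1.81%) above it. With arrays shifted to equal medians the same split was 626 below and 101 above, that is 86.1% below instead of 71.3%. The median departure over all genes was -0.02, and 54.6% of genes had a negative one. Only 47 genes (0.429%) had a departure of 2-fold or more in either direction.

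The interval of each departure shows what these arrays could bound. For 6833 genes (62.3%) the 95% interval of the departure lay within 1.5-fold of additivity in both directions. Another 3556 genes had neither such a bound nor an unadjusted p under 0.05, so for these neither additivity nor a departure was shown. The median SE of a departure was 0.17 and the median half-width of its interval 0.37, on the log2 scale. For many genes, departures of under about 1.5-fold could therefore not be told from additivity with 3 arrays per group. These intervals are not adjusted for the number of genes. The adjusted test was stricter, and none of the 47 genes with a departure of 2-fold or more passed it.

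The pair of Helios-loss effects that make up the departure share no array. Ikzf2-/- minus WT 4 to 6 called 7 genes (0.0638%) at an adjusted p under 0.05: Ccr3, Ticrr, Map6 and Prg4 rose and Tbrg3, Thada and Wwp1 fell. dKO minus Ikzf4-/- called 3 genes (0.0274%): Ccr3 and Csf1 rose and Sidt1 fell. Across all genes the effects correlated at Pearson r = 0.305 and Spearman rho = 0.228, and 57.6% of genes had the same sign in both; genes are not independent replicates, and no p is given. Leaving out single arrays moved the first count from 7 to 409 without Ikzf2-/- 1, to 167 without Ikzf2-/- 2, to 2 without Ikzf2-/- 3, to 3 without WT 1, and to 0 without any other array. The second count went from 3 to 11 without Ikzf2-/- 2, to 2 without Ikzf2-/- 3, to 1 without dKO 1 or dKO 3, and to 0 without any other array. With the replicate number as a block, which the array values bear out for Ikzf4-/- and dKO, no gene passed in either effect (0 and 0), so the calls of Ccr3, Csf1 and Sidt1 rest on the fit without the block.

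Genes with a larger response to Helios loss mostly kept their direction without Eos, at a smaller size. Of 653 genes (5.96%) with an unadjusted p under 0.01 in Ikzf2-/- minus WT 4 to 6, 464 (71.1%) had the same sign in dKO minus Ikzf4-/-. The 485 genes higher in Ikzf2-/- cells had a median log2 difference of 0.43 there and of 0.05 in dKO minus Ikzf4-/-, and the 168 lower ones had -0.40 and -0.05. Only 60 of the 653 (9.19%) had the same sign and an unadjusted p under 0.05 in the other background, where 381 of all genes (3.48%) had such a p in either direction. These genes were chosen on the first effect, so its medians are a description, and the departure correlates by construction with the Ikzf2-/- difference that it subtracts (r = -0.799 across genes). In the other direction, 74 of the 91 genes with an unadjusted p under 0.01 in dKO minus Ikzf4-/- (81.3%) had the same sign in Ikzf2-/- minus WT, and 38 of them a p under 0.05 there.

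**Figure D1:**
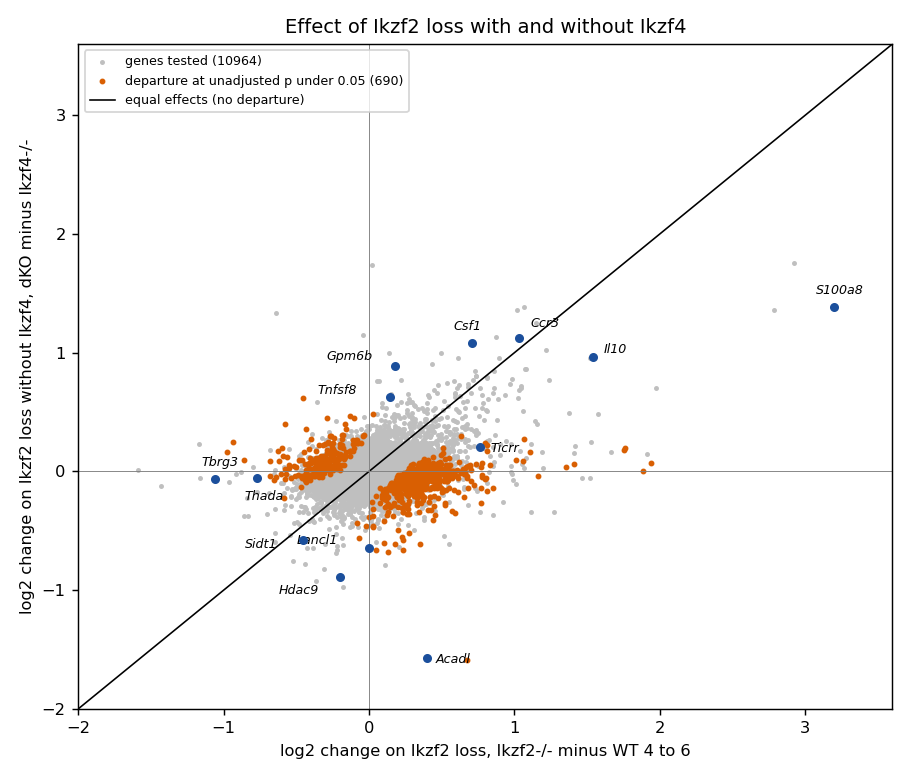
Each point is 1 of 10964 genes, with the log2 change on Helios loss in cells with Eos on the horizontal axis and in cells without Eos on the vertical axis. The 690 genes in orange had an unadjusted departure p under 0.05, and 522 of them lay along the horizontal axis, with an unadjusted p under 0.05 only for Ikzf2-/- minus WT; Ccr3, Csf1 and Sidt1 lie near the line of equal effects and Acadl lies farthest below it among the labelled genes.

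The gene called in both effects of Helios loss was Ccr3, which encodes the eotaxin receptor of eosinophils and of some T cells. Its log2 signals were 5.50, 5.77 and 5.56 in WT 4 to 6 and 6.78, 6.43 and 6.73 in Ikzf2-/- 1 to 3. They were 5.70, 5.38 and 5.65 in the Ikzf4-/- arrays and 6.71, 7.05 and 6.34 in the dKO arrays. In both backgrounds all arrays without Helios lay above all arrays with it. Ccr3 rose by 1.03 (SE 0.17, adjusted p = 0.0433) with Eos present and by 1.12 (SE 0.17, adjusted p = 0.0457) without it. The departure was 0.09 (SE 0.24, 95% interval -0.42 to 0.60), so its interval reached just beyond the 1.5-fold bound.

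Csf1, the gene of the macrophage growth factor M-CSF, had signals of 6.69, 6.59 and 6.48 in WT 4 to 6 and of 7.45, 6.87 and 7.56 in the Ikzf2-/- arrays. Without Eos they went from 6.42, 6.69 and 6.33 to 7.49, 7.43 and 7.77. The groups did not overlap in either background. Csf1 rose by 1.08 (SE 0.16, adjusted p = 0.0457) in dKO against Ikzf4-/- cells, while the difference of 0.71 (SE 0.16) in Ikzf2-/- cells did not pass (adjusted p = 0.0848). Its departure of 0.38 (95% interval -0.12 to 0.87) did not pass, and ran from 0.16 without Ikzf2-/- 2 to 0.51 without Ikzf2-/- 3.

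Sidt1, a transmembrane protein linked to RNA transport, had signals of 8.52, 8.46 and 8.71 in WT 4 to 6 against 8.06, 8.20 and 8.06 in Ikzf2-/- cells. Without Eos they were 8.99, 8.91 and 8.93 against 8.41, 8.40 and 8.27. The groups again did not overlap. Sidt1 fell by 0.58 (SE 0.09, adjusted p = 0.0457) in dKO against Ikzf4-/- cells, beside a difference of -0.46 (SE 0.09, adjusted p = 0.0673) in Ikzf2-/- cells. The departure was -0.12 (95% interval -0.39 to 0.14), within 1.5-fold of additivity.

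Il18r1, the binding chain of the interleukin-18 receptor, had dKO levels near the sum of both single losses. Its signals were 8.52, 8.38 and 8.23 in WT 1 to 3, 8.07, 8.13 and 7.95 in the Ikzf4-/- arrays and 7.61, 7.64 and 7.59 in the dKO arrays, 3 levels without overlap. In the other set they were 8.68, 8.08 and 8.46 in WT 4 to 6 and 7.93, 7.94 and 7.82 in the Ikzf2-/- arrays. The single losses came to -0.33 (SE 0.12) for Ikzf4 and -0.51 (SE 0.12) for Ikzf2, a sum of -0.85, and neither passed alone. In dKO against WT 1 to 3 cells Il18r1 fell by 0.77 (SE 0.12, adjusted p = 0.0445). The departure was 0.08 (95% interval -0.30 to 0.46).

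Altogether 27 genes had the same sign and an unadjusted p under 0.01 in both effects of Helios loss, and for 14 of them the departure was also bounded within 1.5-fold. Values of 4 others illustrate them, none with an adjusted p under 0.05 in either effect. Socs2, an inhibitor of cytokine signalling that STAT5 induces, differed by 0.66 (SE 0.12) with Eos and by 0.47 (SE 0.12) without it. The vascular adhesion gene Heg1 differed by 0.45 and 0.46 (SE 0.09 each). Cd160, a receptor on cytotoxic lymphocytes, differed by -0.55 (SE 0.14) and -0.53 (SE 0.14). Cpe, a carboxypeptidase that matures peptide hormones, differed by 0.58 (SE 0.13) and 0.76 (SE 0.13). The departures of these 4 genes were -0.19, 0.01, 0.01 and 0.18. In Cpe only the dKO mean of 5.14 exceeded the filter level that a group mean had to pass for testing. The Cpe means of 3.86 in WT 4 to 6, 4.44 in Ikzf2-/- and 4.38 in Ikzf4-/- arrays lay under that level. The Cpe difference with Eos is thus of low signal, and Cpe is a weak example. Carhsp1, Atp6v0a1, Fam174b and Plxdc1, also bounded, had departures between 0.00 and 0.08.

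**Figure D2:**
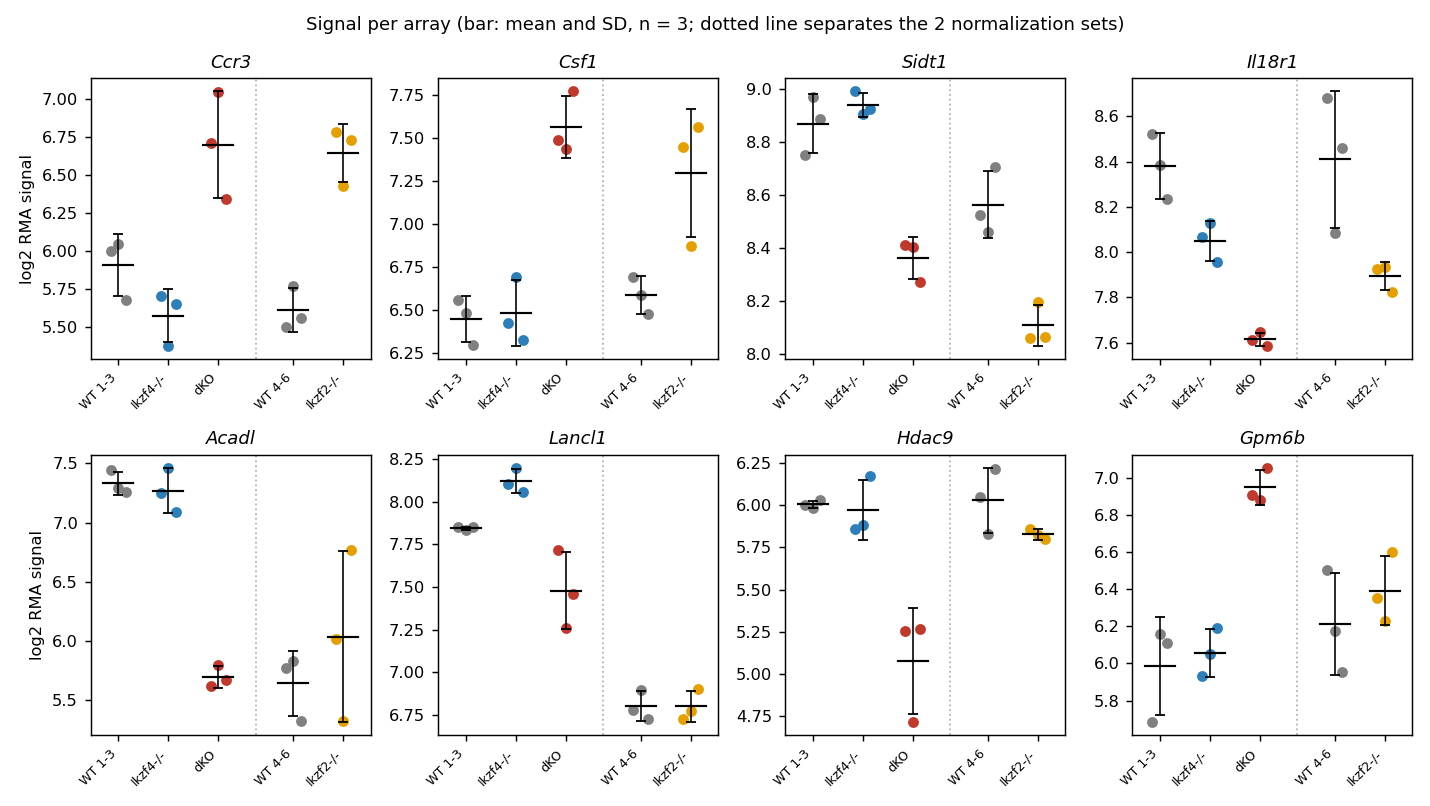
Log2 signal of 8 genes in each of the 15 arrays, with the mean and SD of each group of 3 arrays; the dotted line separates the 2 sets. In the upper row (Ccr3, Csf1, Sidt1, Il18r1) Helios loss went the same way on both sides of the line. In the lower row (Acadl, Lancl1, Hdac9, Gpm6b) dKO arrays stood apart from Ikzf4-/- arrays. There Ikzf2-/- arrays lay near or among WT 4 to 6, except Acadl in Ikzf2-/- 3, at 6.77 against at most 5.83.

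The group of effector Treg genes was near additive in its median but poorly bounded. These genes mark activated Treg cells that act in tissues. Of 25 tested, 21 were higher in Ikzf2-/- than in WT 4 to 6 cells and 22 higher in dKO than in Ikzf4-/- cells, with median log2 differences of 0.30 and 0.35. The median departure was 0.05 beside -0.02 over all genes, and ran from -0.18 without Ikzf2-/- 2 to 0.24 over the single arrays left out. The list mean per array was 7.39 in Ikzf2-/- 2, within the 7.18 to 7.64 of WT 4 to 6, but 8.01 and 8.07 in Ikzf2-/- 1 and 3. It was 8.01, 8.22 and 8.09 in the dKO arrays against 7.55, 8.03 and 7.55 in the Ikzf4-/- arrays, so the groups overlapped in both backgrounds. Only 2 of the 25 departures were bounded within 1.5-fold, against 62.3% of all genes.

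Among its members, Il10, the gene of an inhibitory cytokine, had the largest difference with Eos, 1.54 (SE 0.48), and one of 0.96 without it, a departure of -0.58 (SE 0.68). Ccr2, a receptor for inflammatory chemokines, differed by 1.07 and 1.39, a departure of 0.32 (SE 0.46). Cxcr3, a receptor of type 1 immune responses, differed by 0.72 and 0.77, a departure of 0.05 (SE 0.27). The cytotoxic protease gene Gzmb differed by 0.87 and 1.13, a departure of 0.26 (SE 0.76). The transcription factor genes Maf, Batf and Id2 had departures of 0.06, -0.06 and 0.03. The one member with an unadjusted p under 0.05 was Ctsw, a cysteine protease of cytotoxic lymphocytes, at 0.11 with Eos and -0.60 without it, a departure of -0.71 (SE 0.22, unadjusted p = 0.00554).

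Chemokine receptors and homing genes had median differences of 0.22 with Eos and 0.18 without it over 24 genes and a median departure of 0.05. Without Ikzf2-/- 3 the first median was 0.05 and the departure 0.15, and without Ikzf2-/- 2 they were 0.36 and -0.10. Bounded members numbered 8 of 24. Ccr7, which guides T cells into lymph nodes, differed by -0.20 and -0.18, and Cxcr6, a receptor of tissue-resident T cells, by 0.35 and 0.38. The exception by unadjusted p was the gut-homing receptor gene Ccr9, at 0.27 and -0.52, a departure of -0.79 (SE 0.31, unadjusted p = 0.0250).

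Genes of mitosis had higher means without Helios in both backgrounds. All 24 G2/M genes tested were higher in Ikzf2-/- than in WT 4 to 6 cells and 23 of 24 were higher in dKO than in Ikzf4-/- cells, with medians of 0.78 and 0.58, though none was called. The proliferation antigen gene Mki67 differed by 1.08 and 0.86, the topoisomerase gene Top2a by 0.81 and 0.80, and the mitotic kinase gene Plk1 by 0.77 and 0.70. The median departure was -0.21, with 21 of 24 members below the sum, none at an unadjusted p under 0.05 and none bounded. It turned to 0.12 without Ikzf2-/- 3, to 0.07 without dKO 1 and to 0.04 with the B cell list mean added as covariate. The array means were 6.37, 5.92 and 7.08 in Ikzf2-/- 1 to 3 against 5.57 to 5.86 in WT 4 to 6, and 6.06, 6.88 and 6.69 in dKO 1 to 3 against 5.76 to 6.37 in the Ikzf4-/- arrays. DNA replication genes, which act before mitosis, had medians of 0.18 with Eos and 0.19 without it and a median departure of -0.02 over 29 genes. The first median was 0.08 without Ikzf2-/- 3 and 0.33 without Ikzf2-/- 2, the second was 0.08 without dKO 2, and the departure was -0.18 without Ikzf2-/- 2. Ikzf2-/- 3 also had the highest B cell and neutrophil means, and without that array the G2/M median with Eos was 0.48. Without dKO 2 the median without Eos was 0.38.

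Of the 690 genes with an unadjusted departure p under 0.05, 70 had an unadjusted p under 0.05 in dKO minus Ikzf4-/- and not in Ikzf2-/- minus WT, 50 of them below and 20 above the sum. In dKO minus WT 1 to 3, limma called 7 genes (0.0638%): Csf1, Tnfsf8 and Gpm6b rose, and Acadl, Hdac9, Islr and Il18r1 fell. The calls of this comparison were not followed through the alternative runs, so their dependence on processing or on single arrays is not known.

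Hdac9, a class IIa histone deacetylase that silences genes of the MEF2 factors, was one of the 70. Its signals were 5.86, 5.88 and 6.17 in the Ikzf4-/- arrays and 5.26, 4.72 and 5.26 in the dKO arrays. WT 4 to 6 had 6.05, 5.83 and 6.21 and the Ikzf2-/- arrays 5.86, 5.82 and 5.80. The dKO arrays were below all 12 others, while Ikzf2-/- arrays overlapped their WT arrays and Ikzf4-/- arrays overlapped the 5.98 to 6.03 of WT 1 to 3. Against WT 1 to 3 Hdac9 fell by 0.93 (SE 0.14, adjusted p = 0.0406) in dKO cells, beside single losses of -0.03 (SE 0.14) for Ikzf4 and -0.20 (SE 0.14) for Ikzf2. The departure of -0.69 (SE 0.20, 95% interval -1.12 to -0.26, unadjusted p = 0.00398) did not pass after adjustment, and ran from -0.78 to -0.51 with any single array left out. The other class IIa deacetylase genes named by the rule did not share it: Hdac4 had a departure of 0.18 (SE 0.13) and Hdac7 of 0.33 (SE 0.26).

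Gpm6b, a proteolipid membrane protein gene, was the counterpart above the sum. It had 5.93, 6.05 and 6.19 in the Ikzf4-/- arrays and 6.91, 6.88 and 7.05 in the dKO arrays, against 6.50, 6.17 and 5.96 in WT 4 to 6 and 6.35, 6.23 and 6.60 in the Ikzf2-/- arrays. The dKO arrays were above all other 12. Gpm6b rose by 0.96 (SE 0.15, adjusted p = 0.0406) against WT 1 to 3, beside single losses of 0.07 and 0.18 (SE 0.15 each). The departure was 0.71 (SE 0.22, 95% interval 0.24 to 1.17, unadjusted p = 0.00569).

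Tnfsf8, which encodes the ligand CD153 of the costimulatory receptor CD30, stood at 7.77 to 7.89 in WT 1 to 3, at 8.23, 8.38 and 7.96 in the Ikzf4-/- arrays and at 8.94, 8.82 and 8.68 in the dKO arrays. WT 4 to 6 at 8.04, 7.99 and 7.56 overlapped the Ikzf2-/- arrays at 8.30, 7.81 and 7.90. It rose by 0.98 (SE 0.15, adjusted p = 0.0406) in dKO against WT 1 to 3 cells, where the single losses summed to 0.50. The departure was 0.48 (SE 0.22, 95% interval 0.02 to 0.94). Among 10 TNF superfamily ligands it was the one with an unadjusted p under 0.05, and the median departure of the 10 was 0.09.

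Islr, a secreted leucine-rich repeat protein gene, had 5.49 to 5.73 in WT 1 to 3, 4.95 to 5.21 in the Ikzf4-/- arrays and 4.96, 4.69 and 4.68 in the dKO arrays. It fell by 0.84 (SE 0.13, adjusted p = 0.0406) in dKO cells, of which -0.54 was already present without Eos alone. Its departure was -0.41 (SE 0.19, 95% interval -0.82 to -0.0047). The dKO mean of 4.78 lay under the filter level of log2 4.96.

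The gene with the smallest departure p was Acadl, the long-chain acyl-CoA dehydrogenase of mitochondrial fatty acid oxidation. Its signals were 7.25, 7.46 and 7.09 in the Ikzf4-/- arrays, 7.44, 7.30 and 7.26 in WT 1 to 3, and 5.62, 5.80 and 5.67 in the dKO arrays. In the other set WT 4 to 6 had 5.78, 5.83 and 5.32, and the Ikzf2-/- arrays 6.02, 5.32 and 6.77. The dKO level thus lay at that of WT 4 to 6, and Ikzf2-/- arrays overlapped their WT arrays. Acadl fell by 1.64 (SE 0.26, adjusted p = 0.0406) in dKO against WT 1 to 3 cells. The departure was -1.97 (SE 0.37, 95% interval -2.75 to -1.18, unadjusted p = 0.000105, adjusted p = 0.760). It passed without Ikzf2-/- 2 (-2.32, adjusted p = 0.0105) and with array weights (-1.96, adjusted p = 0.00307), and with single arrays left out it ran from -2.32 to -1.60. WT 4 to 6 differed from WT 1 to 3 by -1.69 in Acadl, against a median of -0.38 over all genes, at percentile 0.246 of that difference. The set difference and the departure both hold the WT 4 to 6 mean with the same sign, so they are linked by construction. Whether the set difference bears on the departure beyond this was not tested. The peptide transporter gene Slc15a2, picked after its values were seen, had a larger departure of -2.27 with a larger SE of 0.71, and SDs of 0.986 and 0.885 in the Ikzf4-/- and dKO arrays.

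Lancl1, a glutathione-binding protein, had 8.11, 8.20 and 8.06 in the Ikzf4-/- arrays and 7.71, 7.26 and 7.46 in the dKO arrays, without overlap. WT 4 to 6 at 6.78, 6.90 and 6.73 and the Ikzf2-/- arrays at 6.73, 6.77 and 6.90 covered the same range. The departure was -0.64 (SE 0.15, 95% interval -0.95 to -0.33, unadjusted p = 0.000632) and its difference between WT sets was -1.04, at percentile 3.08. Both genes lie beside Ikzf2 on chromosome 1 in the gene order of GRCm38.p6, Acadl 5 and Lancl1 3 protein-coding genes away. Of 14 tested genes within 20 on either side of Ikzf2, Acadl, Lancl1 and Tns1 had an unadjusted p under 0.05, and the median departure of the 14 was -0.02. Around Ikzf4 on chromosome 10, 3 of 31 had such a p, where 6.29% of all genes had one. Any sequence that came with a targeted allele cannot be told apart from loss of the gene at this distance.

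Promoters of Ccr3, the gene called in both effects of Helios loss, and of Acadl, the gene with the smallest departure p, are shown because Ikaros family proteins bind sites with the core TGGGAA. The sequences are from RefSeq on GRCm38.p6, are the table's windows around the annotated start, and run 5′ to 3′ on the gene's strand. Capitals mark TGGGAA and its reverse complement TTCCCA, the only motif searched, on both strands. Ccr3 lies on the plus strand at chr9:124021721-124022020 and holds 1 match on each strand. Acadl lies on the minus strand at chr1:66863260-66863559 and holds 0. The windows of Csf1 and Lancl1, also searched, hold 0 as well. Whether the motif goes with either effect of Helios loss was not tested. Of 32851 promoter windows of 300 bases in the table, 25.6% held at least 1 match.
Ccr3: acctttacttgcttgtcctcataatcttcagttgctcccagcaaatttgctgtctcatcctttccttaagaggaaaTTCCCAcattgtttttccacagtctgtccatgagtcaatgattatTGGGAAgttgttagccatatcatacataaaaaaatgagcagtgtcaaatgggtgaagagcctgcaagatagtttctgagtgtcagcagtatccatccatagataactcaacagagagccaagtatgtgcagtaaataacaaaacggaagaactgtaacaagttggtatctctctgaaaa
Acadl: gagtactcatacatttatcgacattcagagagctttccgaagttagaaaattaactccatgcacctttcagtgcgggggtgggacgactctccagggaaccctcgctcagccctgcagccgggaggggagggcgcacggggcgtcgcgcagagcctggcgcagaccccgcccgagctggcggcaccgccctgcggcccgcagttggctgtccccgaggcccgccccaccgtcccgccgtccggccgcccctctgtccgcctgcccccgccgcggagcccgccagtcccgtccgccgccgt

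Most departures at an unadjusted p under 0.05 belonged to genes with such a p in Ikzf2-/- minus WT and not in dKO minus Ikzf4-/-. That class held 522 of the 690, 374 below and 148 above the sum, and a further 90 had no such p in either effect. Only 6 had one in both effects with opposite signs and 2 in both with the same sign. A p that misses the threshold does not show that an effect is absent. These classes also rest on 1 spread for all groups, while the median SD was largest in the Ikzf2-/- group (0.193). The 7 genes called in Ikzf2-/- minus WT 4 to 6 show the range. Ticrr, which licenses the start of DNA replication, rose by 0.76 (SE 0.11, adjusted p = 0.0433) with Eos and differed by 0.21 (SE 0.11) without it, a departure of -0.55 (SE 0.15). Prg4, the lubricin gene, rose by 0.64 and differed by 0.29, and the microtubule protein gene Map6 rose by 0.65 and differed by 0.37. Wwp1, a ubiquitin ligase gene, fell by 0.58 and differed by -0.33 without Eos. Their departures were -0.34, -0.28 and 0.26.

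Tbrg3 and Thada lost the whole difference. Tbrg3 had 8.16, 8.37 and 8.49 in WT 4 to 6 and 7.77, 7.07 and 6.98 in the Ikzf2-/- arrays, but 7.96 to 8.22 in the Ikzf4-/- and 7.89 to 8.15 in the dKO arrays. It fell by 1.06 (SE 0.17) with Eos and differed by -0.06 without it, a departure of 1.00 (SE 0.24, 95% interval 0.49 to 1.51). Thada, a gene linked to thyroid adenoma and metabolism, fell by 0.77 (SE 0.12) and differed by -0.06, a departure of 0.71 (SE 0.18). In both genes Ikzf2-/- 1 lay nearest to the WT arrays, and without that array both departures passed, at 1.25 and 0.89 (adjusted p = 0.0322 each). The other 8 genes above the sum with the smallest p were Gm15455, Ifna2, Gdap10, Tasor, Fbxl17, 3110082I17Rik, Slc9a9 and Prss41. All had negative differences in Ikzf2-/- minus WT 4 to 6, from -0.63 to -0.28, with departures from 0.42 to 0.80. For these 8 genes, Tbrg3 and Thada, the difference between WT sets lay at percentiles 88.5 to 99.2, apart from Prss41 at 39.6. The departure and that set difference hold the WT 4 to 6 mean with the same sign. Genes picked above the sum thus tend to high percentiles by construction. Whether the set difference bears on their departures beyond this was not tested. Tasor, a subunit of the HUSH silencing complex, had 8.55 to 8.62 in WT 4 to 6, 8.36, 8.18 and 7.998 in the Ikzf2-/- arrays and 8.54 to 8.63 in the Ikzf4-/- and dKO arrays.

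Below the sum, all of the 10 genes with the smallest p other than Lancl1 had a positive difference in Ikzf2-/- minus WT 4 to 6 and a negative one in dKO minus Ikzf4-/-. Mis18a, which helps to load histone at centromeres, had 6.08, 6.07 and 5.94 in WT 4 to 6 and 6.62, 6.65 and 7.12 in the Ikzf2-/- arrays. It had 6.93 to 7.18 in the Ikzf4-/- and dKO arrays and 7.02, 6.99 and 6.50 in WT 1 to 3. WT 4 to 6 thus lay below all other arrays in Mis18a. Its departure was -0.91 (SE 0.20, 95% interval -1.34 to -0.47). The nuclear pore gene Nup54 differed by 0.51 with Eos and -0.17 without it, a departure of -0.67. Of the mitochondrial ribosome genes, Mrps34 had 6.41 to 6.55 in WT 4 to 6 and 6.59 to 6.90 in the Ikzf2-/- arrays, against 7.79 to 7.92 in the Ikzf4-/- and 7.50 to 7.60 in the dKO arrays, a departure of -0.58 (SE 0.14). Mrpl44 had a departure of -0.67 (SE 0.16). Mlycd, which breaks down malonyl-CoA, had one of -0.59, Ppdpf -0.78, the ubiquitin-conjugating enzyme gene Ube2e3 -0.56 and Kbtbd7 -0.80. For Mrps34, Ppdpf, Mrpl44, Kbtbd7 and Mis18a the difference between WT sets lay at percentiles 0.556 to 10.9. For Mlycd, Nup54 and Ube2e3 it lay at 26.0, 44.2 and 48.9. Below the sum, the shared WT 4 to 6 mean favours low percentiles by construction. Whether the set difference bears on these departures beyond this was not tested either. All 20 of these genes, 10 in each direction, kept the sign of the departure in every alternative run. They were picked for the smallest p in these same arrays, which favours a kept sign.

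**Figure D3:**
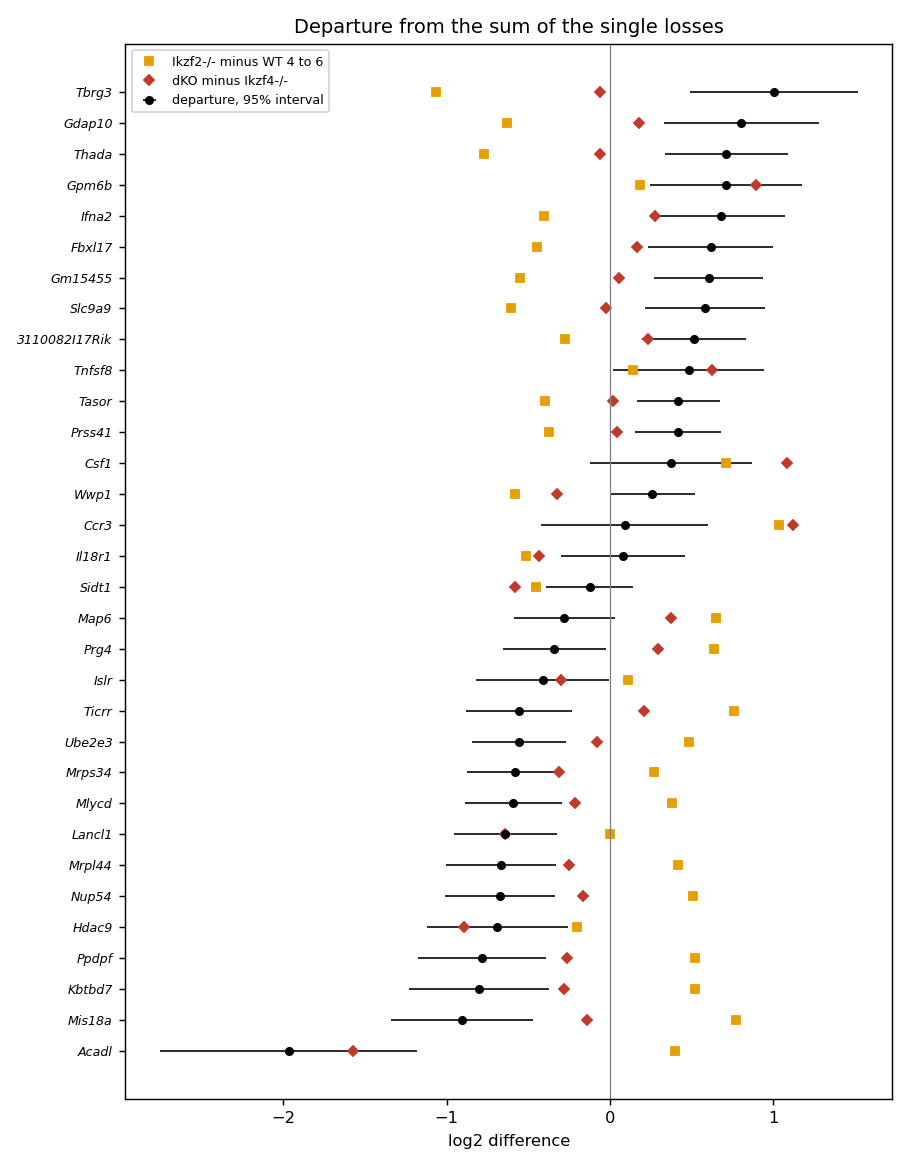
Departure of each named gene with its 95% interval (black), beside the log2 effect of Helios loss with Eos (orange squares) and without Eos (red diamonds). Departures run from -1.97 for Acadl to 1.00 for Tbrg3, and for most genes at either end the orange square, not the red diamond, lies far from 0, Acadl, Lancl1, Hdac9 and Gpm6b being exceptions.

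Respiratory chain genes lay almost all below the sum. Over 35 genes of complexes I and III, which feed electrons from NADH and ubiquinol into ATP production, 33 lay below the sum, with a median departure of -0.24. An unadjusted p under 0.05 was reached by 8 of 35 (22.9%), against 6.29% of all genes. Their median was 0.26 in Ikzf2-/- minus WT 4 to 6, with 32 of 35 higher, and 0.02 in dKO minus Ikzf4-/-. The list mean was 8.74, 8.84 and 8.92 in the Ikzf2-/- arrays, all above the 8.66, 8.60 and 8.44 of WT 4 to 6. It was 9.15, 9.13 and 9.09 in the dKO arrays, which overlapped the 8.98 to 9.15 of the Ikzf4-/- arrays.

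The largest single departures of the list were those of Ndufa6 at -0.67 (SE 0.22), Ndufb10 at -0.56 (SE 0.15) and Ndufb2 at -0.54 (SE 0.18), accessory subunits of complex I, and of Uqcrfs1, the iron-sulphur subunit of complex III, at -0.47 (SE 0.14). Ndufb10 differed by 0.52 with Eos and by -0.03 without it, and Uqcrfs1 by 0.43 and -0.04. Among core subunits, Ndufs1 had a departure of 0.16 (SE 0.14), Ndufv1 of -0.07 (SE 0.24) and Uqcrc1 of -0.04 (SE 0.23), whereas Ndufs3 and Ndufv2 had -0.25 (SE 0.12) and -0.24 (SE 0.17). The list median stayed between -0.32 and -0.14 in every alternative run, at -0.21 without Ikzf2-/- 3. Mitochondrial ribosome genes had a median departure of -0.16 over 36 genes, 30 of them below the sum and 2 at an unadjusted p under 0.05 (5.56%), with medians of 0.15 with Eos and 0.00 without it. Their median stayed between -0.21 and -0.12.

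Other metabolic groups had medians closer to 0. Fatty acid oxidation genes had a median departure of -0.09 over 17, with 13 below the sum. Acadl, Eci1 (-0.33) and Acadvl (-0.37) had an unadjusted p under 0.05, that is 17.6% against 6.29% of all genes. Glycolysis genes had one of -0.07 over 14, with 10 bounded. Cholesterol synthesis genes had one of -0.10 over 19, with 12 bounded. Cytosolic ribosome genes were the best bounded group, 26 of 28 (92.9%), with a median of -0.03 beside -0.02 over all genes. Their 3 members with an unadjusted p under 0.05 were Rplp0, Rpsa and Rps19, between -0.32 and -0.26.

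Interferon response genes lay on the other side. Of 27 tested, 24 were above the sum, with a median departure of 0.18, medians of -0.06 with Eos and 0.12 without it, and 24 of 27 higher in dKO than in Ikzf4-/- cells. None reached an unadjusted p under 0.05, and 6 were bounded. The antiviral gene Oas1a had a departure of 0.70 (SE 0.40), from -0.39 with Eos to 0.32 without it, and the interferon-induced GTPase gene Iigp1 one of 0.50 (SE 0.26), from 0.50 to 1.00. Oasl2 went the other way at -0.58 (SE 0.28). Ikzf4-/- cells differed from WT 1 to 3 by a median of -0.16 in this list. The list median ran from 0.07 without Ikzf2-/- 1 to 0.41 without Ikzf2-/- 3, and was above 0 in every alternative run.

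T cell receptor signalling genes had a median departure of 0.14 over 21, with 16 (76.2%) bounded within 1.5-fold. The phosphatase gene Ptprc (CD45) had one of 0.31 (SE 0.15), the kinase gene Fyn one of 0.32 (SE 0.17) and the adaptor gene Lcp2 one of 0.21 (SE 0.12). Without Ikzf2-/- 2 the list median was -0.0048.

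Core Treg genes, the set that defines the lineage, had a median departure of 0.07 over 27, 12 of them bounded. Foxp3, the lineage factor, differed by -0.08 (SE 0.12) with Eos and by 0.05 (SE 0.12) without it, a departure of 0.13 (95% interval -0.22 to 0.48). Ctla4, an inhibitory receptor gene, had a departure of 0.08 (95% interval -0.20 to 0.37) and Il2ra one of 0.21 (95% interval -0.16 to 0.57). Tnfrsf18 (GITR) had one of 0.08, with a wider interval of -0.48 to 0.64. Foxp3, Ctla4 and Il2ra were bounded within 1.5-fold. Plagl1, a zinc finger gene, had the smallest p of the list at 0.44 (SE 0.17, unadjusted p = 0.0248). The list median turned to -0.20 without Ikzf2-/- 2. Penk, which encodes enkephalin precursor, differed by 1.15 and 0.40, a departure of -0.76 (SE 0.36).

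No other Ikaros family gene passed in the departure. Ikzf1 (Ikaros) had a departure of 0.12 (95% interval -0.17 to 0.42) and Ikzf3 (Aiolos) one of -0.15 (95% interval -0.56 to 0.25), both bounded within 1.5-fold. Ikzf1 signals were 9.99, 9.99 and 9.95 in the dKO arrays against 9.83, 9.76 and 9.84 in the Ikzf4-/- arrays and 9.77, 9.80 and 9.54 in WT 1 to 3. The dKO minus WT 1 to 3 difference of 0.27 (SE 0.10) for Ikzf1 did not pass (adjusted p = 0.830). Ikzf5 (Pegasus) had a departure of 0.46 (95% interval -0.18 to 1.11), with a signal of 6.85 in Ikzf2-/- 2 against 7.75 to 8.07 in all other arrays of that set. Corepressor genes through which the family acts were mostly bounded, 21 of 24 (87.5%), with a median departure of 0.02. Mbd2, a reader of methylated DNA, had the smallest p among them, at -0.28 (SE 0.12).

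Further groups are given by their medians beside the -0.02 of all genes. Helper cytokines and their regulators had a median departure of -0.10 over 16, with the cytokine gene Il2 at -0.40 (SE 0.12, unadjusted p = 0.00386) and the interferon gamma gene Ifng at 0.47 (SE 0.29). Genes of the IL-2 and STAT5 pathway had one of -0.02 over 19, with the growth regulator Myc at -0.47 (SE 0.20) and the cyclin gene Ccnd2 at -0.28 (SE 0.10). Resting T cell genes had one of -0.09 over 15. Among them Id3, an inhibitor of E proteins, differed by 0.24 with Eos and -0.58 without it, a departure of -0.82 (SE 0.28, unadjusted p = 0.0122), and the quiescence factor Klf2 had one of -0.30 (SE 0.13). Coinhibitory and costimulatory receptor genes had one of 0.07 over 18, with Cd226 at 0.49 (SE 0.15, unadjusted p = 0.00482). Immediate early genes had one of -0.03, TNF receptor genes -0.06, IL-1 and IL-18 receptor genes 0.08, cytotoxic granule genes -0.14 (0.07 without Ikzf2-/- 3), heat shock genes 0.02, unfolded protein response genes 0.02 and Bcl2 family genes -0.06. In the unfolded protein response list the chaperone gene Dnajb9 had a departure of -0.84 (SE 0.25, unadjusted p = 0.00528).

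**Figure D4:**
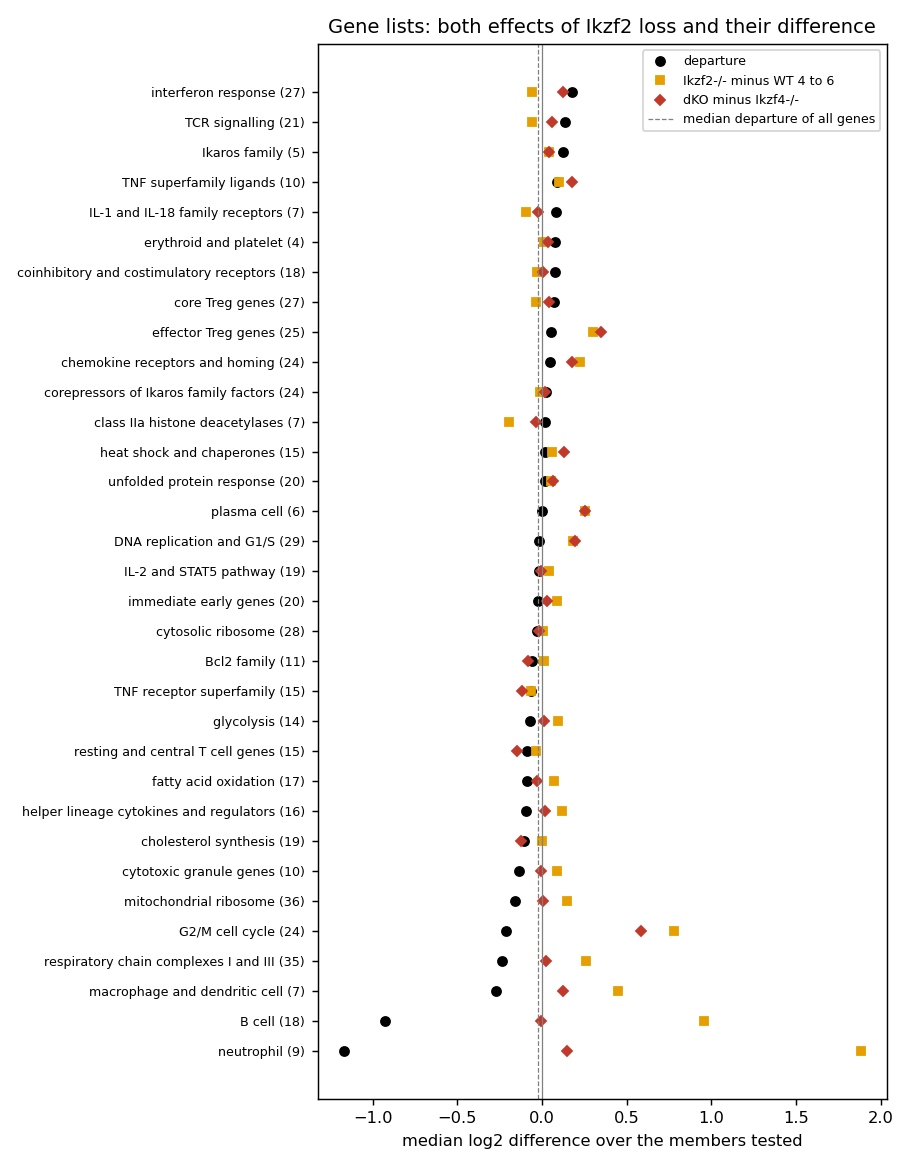
Median departure of each gene list (black), with the median effect of Helios loss with Eos (orange squares) and without Eos (red diamonds), the number of genes tested in parentheses and the median departure of all genes (-0.02) as a dashed line. Effector Treg genes (0.30 and 0.35) lie near additivity, respiratory chain genes (0.26 and 0.02) do not repeat, and B cell and neutrophil genes have the largest negative medians.

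B cell and neutrophil markers had the largest negative median departures among the lists. The median was -0.92 for 18 B cell genes, which differed by 0.96 with Eos and -0.01 without it, and -1.17 for 9 neutrophil genes, at 1.88 and 0.14. The macrophage and dendritic cell list had -0.27 over 7 genes. Plasma cell genes had medians of 0.25 and 0.25 over 6 genes, and the first was 0.13 without Ikzf2-/- 1 and 0.57 without Ikzf2-/- 2. The B cell and neutrophil departures rested largely on 1 array: without Ikzf2-/- 3 the medians became -0.21 for B cell and -0.32 for neutrophil genes. The B cell gene Ms4a1 (CD20) had 8.62 in Ikzf2-/- 3, 6.62 in Ikzf2-/- 1, 4.81 in Ikzf2-/- 2 and 5.05 to 5.28 in WT 4 to 6. With the B cell list mean added as covariate, 790 genes had an unadjusted departure p under 0.05, 280 above and 510 below the sum, and 0 passed. With the neutrophil mean the numbers were 705, 214 and 491, again with 0 passed, and with sex as a factor 536, 174 and 362, with 0 passed.

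**Figure D5:**
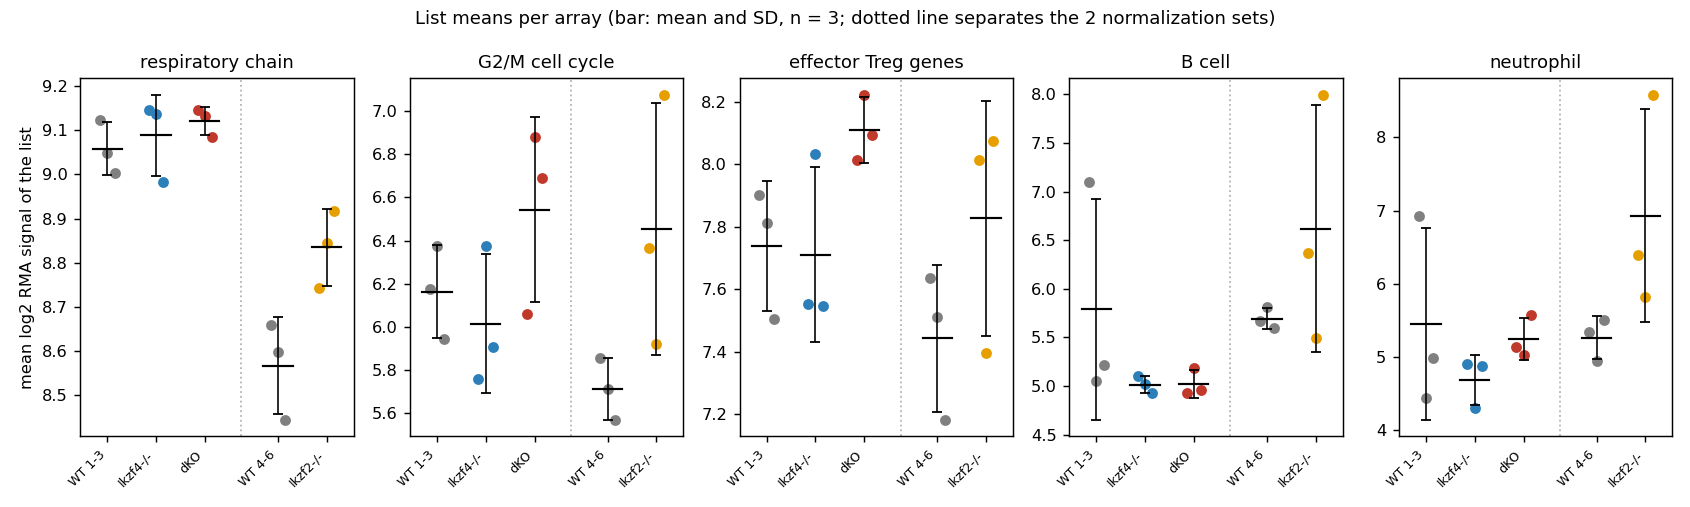
Mean log2 signal of 5 gene lists in each of the 15 arrays, with the mean and SD of each group of 3; the dotted line separates the 2 sets. Respiratory chain means of all 3 Ikzf2-/- arrays exceed those of WT 4 to 6 while dKO and Ikzf4-/- arrays overlap, G2/M and effector means are raised on average on both sides, and B cell and neutrophil means are highest in Ikzf2-/- 3 (7.997 and 8.58).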

How the data were processed

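Log2 signals of 35556 probe sets on 15 single-colour Affymetrix arrays were used as the authors deposited them, made with Affymetrix Expression Console 1.3.1 and RMA (background correction, quantile normalization, probe summary) per the submitters' processing notes. No source used here names the array's genome build. That the arrays fall in 2 sets was inferred from the labels' numbering and checked in the values: the mean number of probe sets with exactly equal values was 2286 for 2 arrays of the first set, 34.4 for 2 of the second and 0.0741 for 1 of each. Of the probe sets, 21789 had 1 gene symbol, 1621 several and 12146 were unnamed; symbols were updated through Entrez identifiers to GRCm38.p6. The brightest probe set per gene was kept, and a gene was tested if a group mean exceeded log2 4.96, the median probe set.

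limma 3.58.1 in R 4.3.3 (lmFit, eBayes) fitted 5 cell means to all 15 arrays (10 residual and 3.72 prior degrees of freedom), with 2-sided tests and Benjamini-Hochberg adjustment over 10964 genes at 0.05. The procedure was tested on simulated data. The number of arrays limits the precision. Deviations of Ikzf4-/- and dKO arrays of equal number correlated at 0.428, 0.196 and 0.267, so the numbers pair them, on evidence from the values alone.

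The comparisons and 36 gene lists (557 of 674 genes tested) were chosen with earlier results of these data known. The text names the 5 Ikaros family genes (Ikzf1 to Ikzf5) and Tnfrsf18, Ctla4, Il2ra and Foxp3 always, every gene called, the 10 smallest departure p in each direction, up to 10 additive genes, and up to 4 list members of smallest p; other list members were named after their values were seen. Alternatives covered the filter, normalization, weights, covariates, probe sets, the replicate block and each array left out.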

Additional observations from a re-analysis of the deposited data

Results flagged for a closer look

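In 13 of the named genes every dKO array lay on one side of the Ikzf4-/- mean. Every Ikzf2-/- array lay on the other side of the mean of WT 4 to 6. Mean effects of Helios loss thus had opposite signs, but those without Eos ran in size only from 0.04 (SE 0.09, Prss41) to -0.31 (SE 0.10, Mrps34). Among all 690 genes with an unadjusted departure p under 0.05, 6 had such a p in both effects with opposite signs. The share of all genes with this array pattern was not counted. The difference between backgrounds was tested as the departure, and none of the 13 passed after adjustment in limma's test (adjusted p = 0.760 each), so these are values only. Above the sum they were Gdap10 (0.8041), Ifna2 (0.6769), Fbxl17 (0.6156), 3110082I17Rik (0.5125) and Prss41 (0.415). Below it they were Mis18a (-0.9073), Kbtbd7 (-0.801), Ppdpf (-0.7843), Nup54 (-0.6741), Mrpl44 (-0.6678), Mlycd (-0.5916), Mrps34 (-0.584) and Ube2e3 (-0.5581). These genes were named for their small departure p, which favours opposite movement. In Ifna2, Prss41 and Mlycd all group means of 1 set lay under the filter level, so 1 of their effects is of low signal.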

How the results depend on the processing

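Of 29 alternatives, 24 called no departure. Those with calls were array weights (1, Acadl), Ikzf2-/- 2 and 3 both left out (3: BC018473, AI506816 and Acadl; chosen after seeing the data, the lone remaining array being assumed to vary like the other groups), and leaving out Ikzf2-/- 1 (4: Tbrg3, Thada, H2az2 and Ppdpf), Ikzf2-/- 2 (1, Acadl) or Ikzf2-/- 3 (1, BC018473). Leaving out single arrays gave 0 to 4 departures, 478 to 1249 at an unadjusted p under 0.05, and 5871 to 7252 bounded. It gave 0 to 409 genes called in Ikzf2-/- minus WT, 0 to 11 in dKO minus Ikzf4-/-, and r between the effects of 0.202 to 0.344. Without the filter 1061 had an unadjusted p under 0.05 and 15494 were bounded, among 19938 genes.

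Genes called in Ikzf2-/- minus WT numbered 7 at first, 35 after renewed quantile normalization, 64 with array weights, 2 without the filter or with the B cell covariate, 1 at equal array medians, and 0 with the 12 arrays alone, weights per group, the neutrophil or the sex covariate. Genes called in dKO minus Ikzf4-/- numbered 3 at first, 21 with array weights, 13 with weights per group, 7 with probe set means or a robust trend, 6 with the stricter filter or both arrays left out, 1 with the neutrophil covariate, and 0 without the filter, at equal medians, after renewed quantile normalization, with the sex covariate or the 12 arrays alone. The correlation was 0.214 with the B cell and 0.363 with the sex covariate. The replicate block left 0 departures, 630 at an unadjusted p under 0.05, and 0 calls in both effects of Helios loss. The causes were not tested. No result turned its direction past a threshold. All 690 genes with an unadjusted p under 0.05 kept their sign on the unlogged scale. There the Ikzf2-/- minus WT difference was first scaled so that both WT means were equal. With that scaling, the sign is nearly fixed by the log2 departure where Ikzf4 loss alone changes a gene little. The count is therefore no independent check. Of 49 named genes, 36 kept the sign of the departure in every alternative, and of 32 lists 9 kept that of their median.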

Other observations

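A pair of genes that were called only with Ikzf2-/- arrays left out varied between arrays like a switch. BC018473 had log2 signals of 3.59 to 3.75 in the first set and of 7.47 to 7.62 in WT 4 to 6, and 4.31, 4.60 and 8.90 in Ikzf2-/- 1 to 3. AI506816 had 8.05 to 9.02 in the first set, 3.12 to 3.33 in WT 4 to 6, and 6.29, 3.34 and 3.22 in Ikzf2-/- 1 to 3.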
